A study of Mus musculus with 30 samples.

Results

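The genes described here are 9 markers used for blood monocytes that enter injured tissue and for the macrophages that follow them during repair: Ly6c2, Plac8, Fcgr1, Trem1, Trem2, Chil3, Retnla, Spp1 and Gpnmb. They were taken by symbol from a fixed list, and all 9 were found among 24601 genes of the whole-tissue table and among 26179 genes of the ribosome pulldown tables. The study followed the muscle layer of the mouse small bowel, the muscularis externa (ME), through postoperative ileus, the loss of gut movement after abdominal surgery. RNA was taken from male mice 3, 24 and 72 h after intestinal manipulation (IM3h, IM24h, IM72h), in which the abdomen is opened and the small bowel is rolled with moist cotton swabs, and from naive mice that had no surgery. RNA was read as total RNA of the whole tissue (ME) and, by RiboTag, as RNA pulled down with ribosomes that carry an HA tag on the protein RPL22 in cells expressing a Sox10-driven Cre, which in this tissue are enteric glia.

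There were 3 naive, 3 IM3h, 4 IM24h and 4 IM72h libraries of ME, and 3 naive, 4 IM3h, 4 IM24h and 4 IM72h libraries of RiboTag. All animals carried the B6N.129 Rpl22tm1.1Psam/J allele. In ME, naive and IM3h mice had it with the B6.Cg-Tg73.12Mvs/J(Gfap-cre) transgene, whereas IM24h and IM72h mice, and all RiboTag mice, had it with the tamoxifen-dependent Tg(Sox10-icre/ERT2)388Wdr/J transgene and received tamoxifen before the experiments. Mouse line and time after surgery therefore cannot be told apart where ME at IM24h or IM72h is set against naive, while IM3h against naive and IM72h against IM24h each stay within 1 line. RiboTag comparisons stay within 1 line throughout, and where they are set against ME naive or IM3h, fraction and mouse line cannot be told apart. The same naive libraries serve every comparison with naive in a fraction.

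ME libraries held 6603170 to 12866062 counts and RiboTag libraries 3010306 to 7899493. The rRNA-like gene AY036118 took 16.1 to 33.5% of the counts in naive ME libraries and 1.33 to 6.50% at IM24h, while in RiboTag it took 2.68 to 14% in naive, 22.2 to 59.2% at IM24h and 58.0 to 80.1% at IM72h. Sox10, the defining gene of the tagged cells, was at 483 to 1033 CPM (counts scaled for library size) in naive RiboTag libraries and at 0 to 11.8 CPM in the IM72h RiboTag libraries, which therefore stand apart from their label. S100b, another glial gene, was at 428 to 700 CPM in naive and 101 to 1072 CPM at IM72h in RiboTag. Smooth muscle genes, which define the muscle layer, summed to 3152 to 23616 CPM in ME. The study gives its n for these data as animals, although the labels tie no library to an animal. All levels below are CPM scaled by the trimmed mean of M values (TMM), libraries are given in the order in which the tables list them, and SD and n refer to libraries.

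Classical monocytes leave the blood through the chemokine CCL2 and its receptor CCR2 and carry surface LY6C and the IgG receptor CD64. In wounded tissue they pass into macrophages that switch from inflammatory to repair programmes, in part under interleukin-4 and interleukin-13, which induce the chitinase-like protein YM1 (Chil3) and RELM alpha (Retnla). Macrophages that clear lipid and debris turn on TREM2, osteopontin (Spp1) and GPNMB. The muscularis externa also holds resident macrophages that lie along enteric neurons.

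The start regions of 5 of the genes are shown because these genes stand for the patterns described further on: Chil3, Spp1 and Trem1 fell between IM24h and IM72h in ME, Fcgr1 rose, and Retnla stayed below naive. Each sequence runs 5′ to 3′ on the gene's strand from 250 bases before to 50 bases after an annotated start (RefSeq, GRCm38.p6). Capitals mark matches, on either strand, to GAGGAA (PU.1, the myeloid lineage factor), TTGCNNAA (C/EBP), TTCNNNGAA (STAT), TGANTCA (AP-1), CACGTG (the E-box read by MITF and TFE factors) or TATAAA (the TATA box). The windows are Chil3 at chr3:106167515-106167814 (minus strand), Spp1 at chr5:104434861-104435160 (plus), Trem1 at chr17:48232489-48232788 (plus), Fcgr1 at chr3:96293920-96294219 (minus) and Retnla at chr16:48842359-48842658 (plus).
Chil3: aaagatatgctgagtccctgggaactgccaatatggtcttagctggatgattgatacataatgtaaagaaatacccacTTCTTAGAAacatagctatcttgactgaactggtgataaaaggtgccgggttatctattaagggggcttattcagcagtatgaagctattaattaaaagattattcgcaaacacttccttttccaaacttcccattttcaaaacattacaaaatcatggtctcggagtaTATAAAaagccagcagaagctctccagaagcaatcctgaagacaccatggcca
Spp1: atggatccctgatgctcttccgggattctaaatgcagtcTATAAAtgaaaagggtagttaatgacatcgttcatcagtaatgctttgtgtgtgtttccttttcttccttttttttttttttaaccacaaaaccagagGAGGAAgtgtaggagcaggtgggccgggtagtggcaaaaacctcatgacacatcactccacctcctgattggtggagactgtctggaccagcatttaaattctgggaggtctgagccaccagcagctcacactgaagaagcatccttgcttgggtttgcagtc
Trem1: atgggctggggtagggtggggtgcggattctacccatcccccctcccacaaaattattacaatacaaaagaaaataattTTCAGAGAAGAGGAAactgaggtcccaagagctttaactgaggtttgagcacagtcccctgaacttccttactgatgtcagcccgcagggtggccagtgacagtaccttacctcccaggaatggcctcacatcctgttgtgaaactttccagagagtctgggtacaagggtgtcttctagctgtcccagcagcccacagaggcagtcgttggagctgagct
Fcgr1: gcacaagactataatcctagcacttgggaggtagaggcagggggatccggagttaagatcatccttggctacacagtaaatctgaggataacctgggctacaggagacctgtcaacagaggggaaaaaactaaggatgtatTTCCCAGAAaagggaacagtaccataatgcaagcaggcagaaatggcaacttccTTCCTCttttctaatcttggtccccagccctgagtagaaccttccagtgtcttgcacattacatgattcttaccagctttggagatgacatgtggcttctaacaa
Retnla: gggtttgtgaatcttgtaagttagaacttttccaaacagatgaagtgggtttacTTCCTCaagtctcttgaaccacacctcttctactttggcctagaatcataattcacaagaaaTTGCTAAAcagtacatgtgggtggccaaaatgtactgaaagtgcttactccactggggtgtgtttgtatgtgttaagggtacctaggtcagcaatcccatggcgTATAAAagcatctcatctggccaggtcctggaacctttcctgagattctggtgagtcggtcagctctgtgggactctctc

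RefSeq held 12 such windows for the 9 genes. GAGGAA stood in 8 of the 12, those of Fcgr1, Plac8, Spp1, Ly6c2, Retnla, Trem1 and Trem2, against 28.28% of 32851 promoter windows of the same length. The 2 windows of Ly6c2 overlap and hold the same matches, so they are not separate instances. TTGCNNAA stood in 4, of Plac8, Spp1, Retnla and Trem2, against 10.8% of all. TTCNNNGAA stood in 3, those of Fcgr1, Chil3 and Trem1, against 8.3%, and in Trem1 it directly precedes the GAGGAA match, starting at base 80 of the window against base 89, with no shared base. TGANTCA stood in the windows of Gpnmb and Trem2, against 7.81% of all, TATAAA in 3 windows, those of Chil3, Spp1 and Retnla, against 13.62%, and CACGTG in none, against 7.15%. These matches describe letters in the windows and were not tested as binding sites.

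In ME, most of these genes rose after surgery. Members were called at an adjusted p under 0.05 (edgeR's quasi-likelihood test, two-sided, Benjamini-Hochberg over all genes tested). At IM3h, 4 of the 6 members that passed the filter on low counts were higher and none was lower, against 19.3% of all 15333 genes tested that were called higher. At IM24h all 9 were tested: 7 were higher, against 15.6% of 16328 genes, and 1, Retnla, was lower, against 13.4%. At IM72h, 8 of 9 were higher, against 29.3% of 16592 genes, and Retnla was again lower, against 28.3%. The median log2 fold change of the 9 was 2.58 at IM24h and 3.17 at IM72h, beside 0.02 over all genes at both times. Counted by library, the IM and naive groups did not overlap, with IM higher, for 3 of 6 members at IM3h (23.4% of all genes), 6 of 9 at IM24h (20.1%) and 8 of 9 at IM72h (31.1%). Retnla was lower without overlap at IM24h (20.8%) and at IM72h (27.7%). Trem1 and Chil3 held 1 count each in naive ME and passed the filter only through the libraries after surgery. The same holds at IM24h and IM72h for Ly6c2, Trem2 and Spp1, which did not pass at IM3h. For these genes a call of lower was hardly possible, so the counts of members called higher or not overlapping lean upward. The counts of called members were 4, 8 and 9 also when AY036118 was left out of the table, and the 8 at IM24h fell to 5 without naive library 2 or 3 and with scaling by Actb, Hsp90ab1 and Rplp1. In bulk tissue, a change in the number of cells of a type and a change of RNA per cell cannot be told apart.

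**Figure D1:**
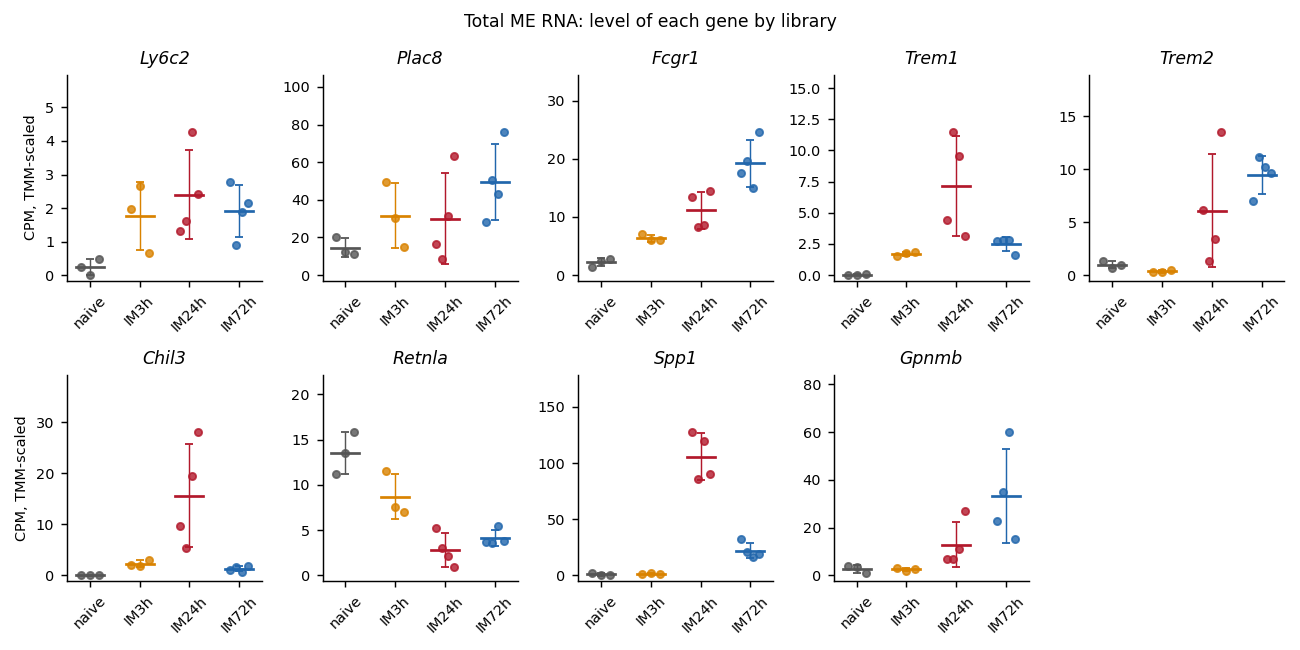
Levels of the 9 genes in each ME library (points, TMM-scaled CPM on the y axis, 1 panel per gene) for naive, IM3h, IM24h and IM72h, with bars at the group mean and lines at ± 1 SD. Spp1 and Chil3 are highest at IM24h, Fcgr1, Trem2 and Gpnmb have their highest mean at IM72h, and Retnla is highest in naive.

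Ly6c2 encodes a LY6C surface protein of classical monocytes. It was at 0.241, 0 and 0.484 CPM in naive ME and at 1.97, 2.65 and 0.664 CPM at IM3h. At IM24h it was at 1.32, 1.60, 4.27 and 2.41 CPM, and at IM72h at 2.77, 0.901, 1.88 and 2.14 CPM. Every library after surgery lay above every naive library, and the 3 times overlapped each other. It was 8.59-fold higher at IM24h (log2 3.10 ± 0.94 SE, adjusted p = 0.0310) and 6.56-fold higher at IM72h (2.71 ± 0.66, adjusted p = 0.00477). At IM3h it did not pass the filter, and an exact two-sided permutation test gave p = 0.1, the smallest that 3 against 3 libraries allow. It was called there with no filter (log2 2.68, adjusted p = 0.0434), with all groups in 1 fit (2.66, adjusted p = 0.0340) and without IM3h library 3 (3.06, adjusted p = 0.0229). The IM24h call did not hold without naive library 1 (adjusted p = 0.133), 2 (0.103) or 3 (0.0658), without IM24h library 3 (0.0654), or with scaling by Actb, Hsp90ab1 and Rplp1 (0.0916). Without naive library 3, which held its highest naive level, the log2 values were 3.94 at IM24h and 3.54 at IM72h. Of the 50-base words in the last 500 bases of its transcripts, 34.79% also occur in I830127L07Rik, Ly6a or Ly6c1, and 0% of its 13 ME values above 0 were whole numbers, so its low level is uncertain.

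Plac8, a small cysteine-rich protein abundant in blood monocytes, was at 20.4, 12.2 and 11.2 CPM in naive ME and 49.5, 30.5 and 14.9 CPM at IM3h. It spread from 8.79 to 63.2 CPM at IM24h (30.0 ± 24.1 CPM, mean ± SD, n = 4) and lay at 28, 50.8, 43.2 and 76.1 CPM at IM72h. The IM24h libraries straddled the naive range, whereas each IM72h library lay above it. It was 2.25-fold higher at IM3h (log2 1.17 ± 0.39 SE, adjusted p = 0.0414) and 3.29-fold higher at IM72h (1.72 ± 0.32, adjusted p = 0.000951). At IM24h the log2 difference was 1.03 (95% interval −0.08 to 2.14, adjusted p = 0.201), and 0.36 without IM24h library 4 (adjusted p = 0.532). The IM3h call was lost without naive library 2 (adjusted p = 0.117) or 3 (0.154), without IM3h library 1 (0.160) or 2 (0.0968), and with scaling by the library total (0.0909). It was also lost with the 3 reference genes named above (0.153) and in a fit of all groups together (0.200). At IM24h the gene was called with the library total alone (log2 1.66, adjusted p = 0.0327) and with no scaling (1.45, adjusted p = 0.0125).

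Fcgr1 encodes CD64, the high-affinity IgG receptor, and its mean was higher at each later time. Its levels were 1.45, 2.36 and 2.78 CPM in naive ME and 7.03, 6.04 and 5.97 CPM at IM3h. They were 13.4, 8.19, 8.64 and 14.4 CPM at IM24h and 17.6, 19.7, 15.1 and 24.7 CPM at IM72h. No 2 groups overlapped, neighbours in time included. The gene was 2.99-fold higher at IM3h (log2 1.58 ± 0.36 SE, adjusted p = 0.00766), 5.06-fold higher at IM24h (2.34 ± 0.40, adjusted p = 0.00197) and 8.63-fold higher at IM72h (3.11 ± 0.27, adjusted p = 5.78e-06). The other IgG receptors of phagocytes, listed as its paralogs, were also above naive in ME at IM24h and IM72h: Fcgr3 was 3.51-fold higher at IM24h and 7.03-fold at IM72h, Fcgr4 3.04-fold and 15-fold, and the inhibitory Fcgr2b 3.89-fold and 3.02-fold, all called. Between IM24h and IM72h, Fcgr3 and Fcgr4 were higher at IM72h (log2 1.02 and 2.27, adjusted p = 0.00487 and 5.20e-05), while Fcgr2b was at −0.37 (adjusted p = 0.259).

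Trem1 is an activating receptor of neutrophils and monocytes that signals through the adaptor DAP12 (Tyrobp). Its naive ME libraries held 1 count in all (0, 0 and 0.121 CPM). It was at 1.55, 1.77 and 1.83 CPM at IM3h, at 4.42, 11.5, 9.55 and 3.10 CPM at IM24h, and at 2.77, 2.78, 2.79 and 1.62 CPM at IM72h. Every library after surgery was above every naive library. Because the naive group held a single count, the ratio is given with its 95% counting interval: 36.2 at IM3h (6.07 to 1471, adjusted p = 0.00191), 155 at IM24h (27.5 to 6123, adjusted p = 0.000705) and 51.9 at IM72h (9.16 to 2067, adjusted p = 0.000104). The annotation places a pseudogene, AC241601.2, on the opposite strand of the same locus. Neutrophil markers moved with Trem1: the summed level of 10 of the 12 listed was 7.12 to 9.79 CPM in naive, 38.8 to 62.7 at IM3h, 148 to 454 at IM24h and 85.7 to 146 at IM72h, with Ngp at 0 in naive and IM3h. Their part in the Trem1 values was not tested.

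Trem2, a receptor for lipids and apolipoproteins on macrophages that uses the same adaptor, was not above naive at IM3h. It was at 1.33, 0.645 and 0.967 CPM in naive ME and at 0.281, 0.295 and 0.498 CPM at IM3h. It was at 6.11, 1.30, 3.36 and 13.5 CPM at IM24h and at 6.96, 11.1, 10.2 and 9.67 CPM at IM72h. All IM3h libraries lay below naive, 1 IM24h library fell into the naive range, and the IM72h libraries were above it. At IM3h the gene did not pass the filter (exact permutation p = 0.1, the smallest possible). It was 5.97-fold higher at IM24h (log2 2.58 ± 0.79 SE, adjusted p = 0.0332) and 8.99-fold higher at IM72h (3.17 ± 0.31, adjusted p = 1.13e-05). The IM24h call was lost without naive library 1 (adjusted p = 0.0825), 2 (0.116) or 3 (0.106), without IM24h library 1 (0.0573) or 4 (log2 1.82, adjusted p = 0.0703), and with the 3 reference genes (0.113). Tyrobp itself was higher at IM24h (log2 1.93 ± 0.65, adjusted p = 0.0467) and was not called at IM3h or IM72h (adjusted p = 0.410 and 0.224).

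Chil3 encodes YM1, a secreted chitinase-like protein. Its naive ME libraries also held 1 count (0.121, 0 and 0 CPM). It was at 2.11, 1.77 and 2.99 CPM at IM3h, at 9.69, 5.39, 19.5 and 28.1 CPM at IM24h, and at 1.09, 1.65, 0.678 and 1.75 CPM at IM72h. Every library after surgery was above naive, the IM24h libraries were the highest, and on the TMM scale the IM72h libraries lay below the IM3h libraries, by as little as 1.75 against 1.77 CPM. With scaling by the library total those 2 groups overlapped. The ratio to naive was 47.9 at IM3h (95% counting interval 8.17 to 1934, adjusted p = 0.00106), 324 at IM24h (57.9 to 12807, adjusted p = 0.000368) and 27.9 at IM72h (4.85 to 1119, adjusted p = 0.00135). Without IM72h library 1, 2 or 4 the gene did not pass the filter in that comparison. Of the 50-base words in its last 500 transcript bases, 15.43% also occur in Chil4 or Gm6522. The neutrophil sums given beside Trem1 were highest at IM24h like Chil3 but, unlike it, were higher at IM72h than at IM3h, and their part in the Chil3 values was not tested.

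Retnla, which encodes RELM alpha and is also expressed in adipose tissue, went down. It was at 11.2, 13.5 and 15.8 CPM in naive ME and at 11.5, 7.51 and 6.97 CPM at IM3h. It was at 5.27, 3.0, 2.09 and 0.917 CPM at IM24h and at 3.69, 3.61, 5.43 and 3.76 CPM at IM72h. All libraries at IM24h and IM72h were below all naive and IM3h libraries. With scaling by the library total, IM3h (from 4.70 CPM) overlapped IM24h (up to 6.69 CPM) and IM72h (up to 6.59 CPM). The gene was 4.78-fold lower at IM24h (log2 −2.26 ± 0.48 SE, adjusted p = 0.00648) and 3.35-fold lower at IM72h (−1.74 ± 0.22, adjusted p = 5.66e-05). Over 16 alternative fits the IM72h value ranged from −2.35 to −0.78 and was called in all. At IM3h the log2 difference was −0.58 ± 0.26 (adjusted p = 0.113). It passed there without IM3h library 1 (−0.86, adjusted p = 0.0322), with the library total (−0.84, adjusted p = 0.0398) and with the 3 reference genes (−0.99, adjusted p = 0.0150). Adipocyte markers moved with it: all 6 were called lower at IM24h and at IM72h, and their summed level was 325 to 456 CPM in naive, 257 to 563 at IM3h, 26.3 to 60.0 at IM24h and 43.0 to 185 at IM72h. Their part in the fall of Retnla was not tested. Its paralog Retn, the adipocyte hormone resistin and itself 1 of those 6, was at log2 −5.11 ± 0.72 at IM24h (adjusted p = 0.000716).

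Spp1 encodes osteopontin, a secreted ligand of integrins and CD44. It was at 2.41, 0.215 and 0.242 CPM in naive ME, with 20 of the 23 naive counts in library 1, and at 0.985, 1.77 and 1.16 CPM at IM3h. It was at 128, 85.7, 120 and 89.9 CPM at IM24h and at 32.0, 20.7, 16.5 and 18.9 CPM at IM72h. The IM24h libraries were tightly placed (106 ± 21 CPM, mean ± SD, n = 4) and all above IM72h, which was above naive and IM3h. The gene was 98.4-fold higher at IM24h (log2 6.62 ± 0.54 SE, adjusted p = 6.09e-05) and 20.1-fold higher at IM72h (4.33 ± 0.52, adjusted p = 4.51e-05), and did not pass the filter at IM3h (exact permutation p = 0.6). Without naive library 1 the log2 values were 8.73 at IM24h and 6.47 at IM72h, so the size rests on that library. Of 7 receptor genes, 3 were higher and 2 lower at IM3h, 2 higher and 3 lower at IM24h, and 2 higher and 2 lower at IM72h. Over all genes, 19.3, 15.6 and 29.3% were called higher at the 3 times, and 2058 of 15333 genes, 13.4% and 28.3% lower, so the IM72h counts are near the share of all genes. Cd44 was higher at every time (log2 2.83 ± 0.15, 2.28 ± 0.21 and 1.19 ± 0.15), whereas Itga9 was at log2 −1.64 at IM24h. A gene on the same strand, Gm42793, overlaps Spp1 and holds 8.23% of the 50-base words of its transcript ends.

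Gpnmb encodes a transmembrane glycoprotein of lysosome-rich phagocytes and a known target of MITF and TFE factors. It was at 3.74, 3.44 and 0.967 CPM in naive ME and at 2.95, 1.77 and 2.66 CPM at IM3h. It was at 6.68, 6.89, 10.9 and 26.8 CPM at IM24h and at 22.8, 34.9, 60.0 and 15.1 CPM at IM72h. Naive and IM3h overlapped, every IM24h and IM72h library was above both, and these later groups overlapped each other. The gene was 4.78-fold higher at IM24h (log2 2.26 ± 0.63 SE, adjusted p = 0.0224) and 12.3-fold higher at IM72h (3.62 ± 0.55, adjusted p = 0.000223). The log2 difference at IM3h was −0.07 ± 0.53 (adjusted p = 0.938) and turned to 0.23, 0.13 and 0.09 without naive library 1, naive library 2 and IM3h library 2. The IM24h call was lost without naive library 2 (adjusted p = 0.0615) or 3 (0.0836) and with the 3 reference genes (0.107), and without IM24h library 4 the log2 value there was 1.60.

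**Figure D2:**
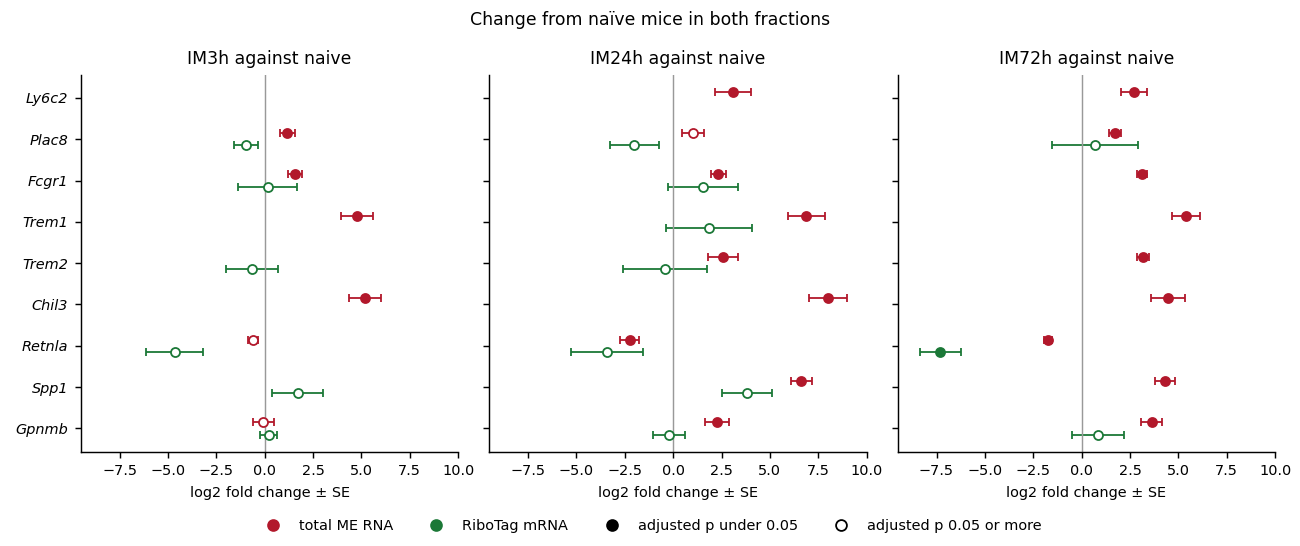
Log2 fold change against naive (points, lines ± 1 SE) of each gene at IM3h, IM24h and IM72h, in ME (red) and RiboTag (green), with filled points where the adjusted p is under 0.05. The ME points lie above 0 for 8 genes at IM72h and below for Retnla, while in RiboTag 1 point is filled, that of Retnla at IM72h, and the ME values of Chil3 and Trem1 rest on 1 naive count and the RiboTag value of Retnla at IM72h on a group at 0.

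The comparison of IM72h with IM24h, within 1 mouse line, asked which of the genes had passed their peak. Chil3, Spp1 and Trem1 were lower at IM72h (3 of 9 members, against 19.9% of 16281 genes called lower) and Fcgr1 was higher (1 of 9, against 18.6%). The same 4 were the members whose groups did not overlap, 3 lower (17.6% of all genes) and 1 higher (21.6%). The median over the 9 was 0.51 on the log2 scale, beside 0.01 over all genes. Chil3 was 12.2-fold lower (log2 −3.61 ± 0.53 SE, adjusted p = 0.000420) and Spp1 4.92-fold lower (−2.30 ± 0.23, adjusted p = 5.20e-05). The genes of the secreted proteins YM1 and osteopontin had the largest falls among the 9. Trem1 was 2.94-fold lower (−1.56 ± 0.44, adjusted p = 0.0173) and Fcgr1 1.69-fold higher (0.76 ± 0.24, adjusted p = 0.0292).

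The calls of Chil3 and Spp1 held in all 17 alternative fits, with log2 values of −4.01 to −3.11 and −2.54 to −1.89. Trem1 was not called without IM72h library 4 (adjusted p = 0.0521) or with no scaling (log2 −1.15, adjusted p = 0.0588). Fcgr1 was not called without IM24h library 2 (adjusted p = 0.0578) or 3 (0.0782), without IM72h library 2 (0.0638) or 4 (0.0848), or with the 3 reference genes (log2 0.50, adjusted p = 0.380). The other 5 were not called. Gpnmb was at log2 1.35 (95% interval 0.36 to 2.33, adjusted p = 0.0540), Plac8 at 0.70 (−0.28 to 1.68), Trem2 at 0.62 (−0.43 to 1.66), Retnla at 0.51 (−0.43 to 1.44) and Ly6c2 at −0.35 (−1.37 to 0.67). IM24h library 4 weighed on this group: without it 7 members were called, with Gpnmb (log2 1.99, adjusted p = 0.00427), Plac8 (1.36, adjusted p = 0.0233) and Trem2 (1.37, adjusted p = 0.0267) higher at IM72h. Gpnmb was also called without IM72h library 4 (1.60, adjusted p = 0.0303), with DESeq2 (adjusted p = 0.0186), with no filter (0.0436), with all groups in 1 fit (0.0257) and with no scaling (1.84, adjusted p = 0.00521).

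**Figure D3:**
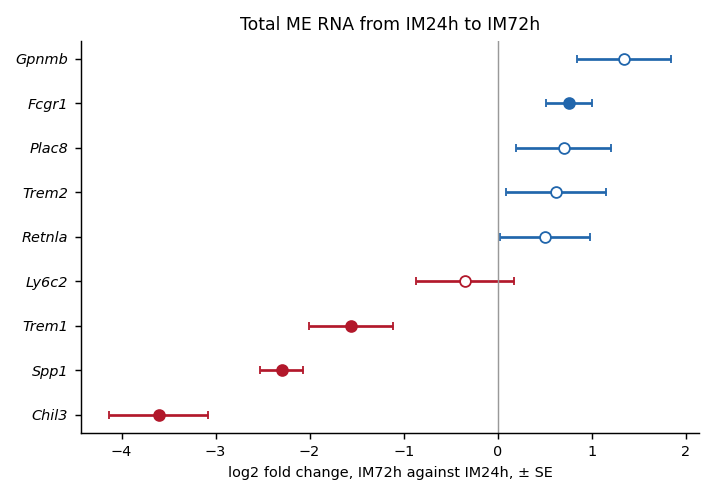
Log2 fold change of each gene in ME at IM72h against IM24h (points, lines ± 1 SE), with filled points where the adjusted p is under 0.05, blue for higher and red for lower at IM72h. Chil3, Spp1 and Trem1 lie below 0, between −3.61 and −1.56, and Fcgr1 lies above it at 0.76.

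In order of mean ME level, 4 members were highest at IM24h (Ly6c2, Trem1, Chil3 and Spp1), 4 at IM72h (Plac8, Fcgr1, Trem2 and Gpnmb) and Retnla in naive. The top 2 positions overlapped between libraries for Ly6c2, Plac8, Trem2, Gpnmb and Retnla. Across the 14 ME libraries Trem2 tracked Gpnmb (Pearson r = 0.89 of log levels) and Trem1 tracked Chil3 (0.84), while Retnla ran opposite to the other 8 (−0.87 to −0.45). These values are descriptions over libraries that share groups and depth.

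In the RiboTag fraction the 9 genes summed to 31.0 to 44.7 CPM in naive, beside 32.4 to 40.9 CPM in naive ME. The largest means were those of Gpnmb and Plac8 in naive RiboTag and of Plac8 and Retnla in naive ME. Scaled by the library total, the mean of Plac8 went from 9.79 to 16.96 CPM in naive RiboTag. In naive ME it went from 14.6 to 11.9 CPM. The naive sums are therefore not read as equal between the fractions. In RiboTag the sum of the 9 genes was 27.3 to 61.9 CPM at IM24h, where it was 132 to 242 CPM in ME, and 1.23 to 131.8 CPM at IM72h. At IM3h none of 6 members tested was called, against 13.3% of 16053 genes called in either direction. At IM24h none of 7 was called, against 0.497% of 15304 genes. With so few genes called there, the absence of a call does not show the absence of a change. At IM72h 1 of 3 tested, Retnla, was lower, against 15.1% of 13572 genes called lower. At an unadjusted p under 0.05 with over 2-fold change, 1 of 6 was lower at IM3h, Retnla, against 8.86% of genes, and 1 of 7 was higher at IM24h, Spp1, against 6.62%. Mean levels were highest at IM24h for 5 members, at IM72h for 2 and in naive for 2. At IM3h the uncalled log2 differences from naive were 1.70 for Spp1 (0.64 to 3.83 with 1 library left out), 0.20 for Gpnmb, 0.17 for Fcgr1, −0.67 for Trem2 and −0.96 for Plac8 (adjusted p = 0.379 to 0.968). At IM24h, Trem1 was at 1.85 (1.23 to 7.07 with 1 library left out), Fcgr1 at 1.55, Gpnmb at −0.22 and Trem2 at −0.43 (adjusted p = 0.802 to 0.963).

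**Figure D4:**
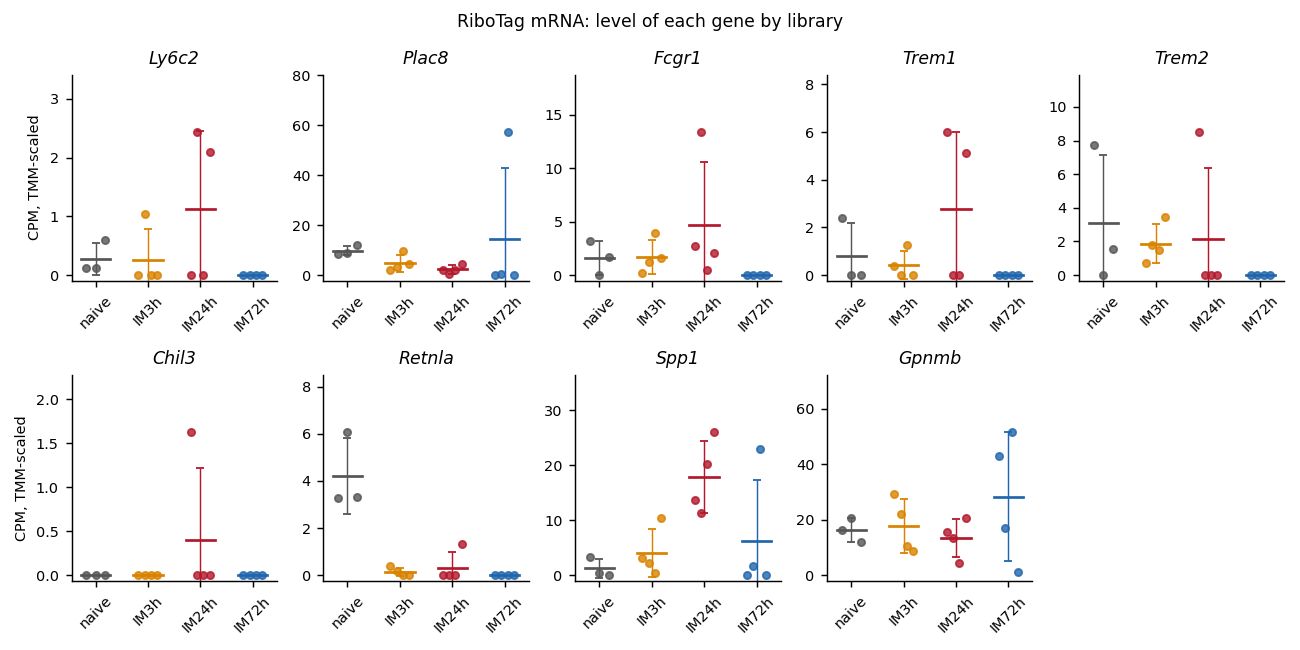
Levels of the 9 genes in each RiboTag library (points, TMM-scaled CPM on the y axis, 1 panel per gene) for naive, IM3h, IM24h and IM72h, with bars at the group mean and lines at ± 1 SD. Spp1 is present in all 4 IM24h libraries, Retnla is lower in every library after surgery than in naive, and 6 of the genes are at 0 in all IM72h libraries.

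Spp1 was at 3.29, 0.449 and 0.118 CPM in naive RiboTag, 3.08, 2.28, 0.463 and 10.4 CPM at IM3h, 13.8, 11.4, 20.3 and 26 CPM at IM24h, and 0, 1.75, 22.9 and 0 CPM at IM72h. Its IM24h libraries were above all naive and IM3h libraries, and 2 of the 4 IM72h libraries were at 0. With scaling by the library total, IM24h (from 6.68 CPM) and IM3h (up to 14.2 CPM) overlapped. The log2 difference from naive at IM24h was 3.81 ± 1.30 SE (95% interval 1.25 to 6.36, adjusted p = 0.191), and DESeq2 called it (3.75, adjusted p = 0.0120). Naive library 1 held most of the naive counts, and without it the log2 difference was 5.88 (adjusted p = 0.277). Glial RNA was lower in the same IM24h libraries: 8 enteric glia genes summed to 772 to 931 CPM against 1566 to 1883 CPM in naive, and Sox10 was at 37.8 to 418 CPM. Its part in the Spp1 values was not tested.

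Retnla was at 3.29, 6.07 and 3.30 CPM in naive RiboTag and at 0.384, 0.190, 0 and 0 CPM at IM3h. It was at 0, 0, 0 and 1.33 CPM at IM24h and at 0 in all 4 libraries at IM72h. All libraries after surgery were below all naive libraries. At IM72h it was at least 10.1-fold lower (0 counts against 108, set against a floor of 3 counts over the group, adjusted p = 0.00892), with 54 of the 108 naive counts in library 2. That call was lost with DESeq2 (adjusted p = 0.0620), with no filter on low counts (0.148) and with all groups in 1 fit (0.0843), and the gene did not pass the filter once AY036118 was left out. At IM3h the log2 difference was −4.66 ± 1.46 (adjusted p = 0.0548), called with DESeq2 (−4.79, adjusted p = 0.00243) and without IM3h library 4 (−4.27, adjusted p = 0.0364), and −5.68 without IM3h library 1. At IM24h it was −3.44 (adjusted p = 0.478) with 7 counts, all in library 4, and −7.73 without that library (adjusted p = 0.187). The 6 adipocyte markers summed to 14.7 to 59.9 CPM in naive RiboTag, 11.5 to 12.6 at IM3h, 4.37 to 42.7 at IM24h and 0.473 to 117.6 at IM72h, so they lay below naive with Retnla at IM3h and overlapped naive at IM24h and IM72h. Of those tested, Cfd was called lower at IM3h, and none at IM24h or IM72h. Their part in the Retnla values was not tested.

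Gpnmb was the only member with counts in all 15 RiboTag libraries, at 16.3, 20.7 and 11.9 CPM in naive, 29.3, 22.2, 10.4 and 8.92 CPM at IM3h, and 15.8, 13.4, 4.41 and 20.7 CPM at IM24h. It was at 43.0, 17.1, 51.6 and 1.23 CPM at IM72h. The 4 groups overlapped, and it was called at no time (adjusted p = 0.858 at IM72h). Plac8 was at 8.47, 8.99 and 11.9 CPM in naive, 1.85, 3.13, 9.72 and 4.28 CPM at IM3h, 2.13, 0.407, 2.20 and 4.56 CPM at IM24h, and 0, 0.438, 57.3 and 0 CPM at IM72h. The IM24h libraries lay below naive, and 1 IM72h library held nearly all counts of its group. Its log2 difference was −2.01 at IM24h (adjusted p = 0.574) and 0.69 at IM72h (adjusted p = 0.942), and without IM72h library 3 it was called lower (−5.79, adjusted p = 0.0342).

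The receptors, Ly6c2 and Chil3 were low and uneven in RiboTag, with at most 68 counts in a library. Fcgr1 was at 3.16, 0 and 1.65 CPM in naive, 0.154 to 3.93 CPM at IM3h, 0.441 to 13.4 CPM at IM24h and 0 in all 4 IM72h libraries. Trem1 was at 2.40, 0 and 0 CPM in naive, up to 1.27 CPM at IM3h, at 6.01, 0, 0 and 5.13 CPM at IM24h, and at 0 at IM72h. Trem2 was at 7.71, 0 and 1.53 CPM in naive, 0.692 to 3.44 CPM at IM3h, 8.52, 0, 0 and 0 CPM at IM24h, and at 0 at IM72h. Ly6c2 reached 2.44 CPM in 1 IM24h library and was at 0 at IM72h, and Chil3 was at 0 in every library but IM24h library 1, where 13 counts gave 1.63 CPM. None of these 5 genes exceeded 13.4 CPM in a RiboTag library. At IM72h the 0 counts set Trem2 at least 6.90-fold, Fcgr1 at least 3.64-fold and Trem1 at least 1.77-fold below naive (floor of 3 counts over the group). These bounds rest largely on naive library 1, which held 61 of the 74 naive counts of Trem2, 25 of the 39 of Fcgr1 and all 19 of Trem1. These genes did not pass the filter there, and exact permutation tests gave p = 0.286, 0.286 and 0.857. Without naive library 2, Fcgr1 passed the filter and was called lower (adjusted p = 0.00363).

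Between IM24h and IM72h in RiboTag, 0 of the 2 members tested were called, as were 0% of 9344 genes (edgeR, with 590 genes at an unadjusted p under 0.05). Spp1 was at log2 −1.35 and Gpnmb at 1.14 (adjusted p = 0.999 each), and Spp1 at −4.83 without IM72h library 3. The other 7 did not pass the filter. Among them Fcgr1 was at 0.441 to 13.4 CPM in the 4 IM24h libraries and at 0 in the 4 IM72h libraries, at least 8.79-fold lower (0 counts against 67, floor of 3 counts over the group), and an exact two-sided permutation test gave p = 0.0286, the smallest that 4 against 4 libraries allow. Of those 67 counts, 33 were in IM24h library 2, and this was 1 of 7 such tests, without adjustment. At IM72h, AY036118 took 58.0 to 80.1% of the counts, Sox10 was near 0 and 6 members were at 0 in every library. The 0 counts are therefore not read as a fall particular to Fcgr1. In ME the direction of Fcgr1 between these times was the opposite. The exact permutation test gave p = 0.429 for Ly6c2 and Trem1, 0.971 for Plac8, and 1 for Trem2, Chil3 and Retnla. The pulldown also held genes of other cell types. In naive RiboTag, 6 smooth muscle genes summed to 4853 to 7491 CPM, beside 1566 to 1883 CPM for 8 enteric glia genes. Leukocyte genes were present as well: 5 listed genes summed to 35.5 to 64.4 CPM in naive, 22.0 to 48.5 at IM3h, 62.2 to 150.2 at IM24h and 32.5 to 290 at IM72h. Ccr2, the monocyte chemokine receptor, had a mean of 7.0 CPM in naive and 47.5 ± 12.6 CPM (SD, n = 4) at IM24h. Their part in the Spp1 values of this fraction was not tested.

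Whether the response differed between whole tissue and pulldown was tested as the interaction of fraction and treatment, in which ME naive and IM3h mice were of another line than RiboTag mice, so that fraction and line cannot be told apart. At IM3h none of 7 members was called, against 1.66% of 17617 genes. Beside Retnla, the log2 differences of RiboTag from ME were −2.06 for Plac8, −1.34 for Fcgr1, −0.21 for Ly6c2, 0.35 for Gpnmb, 0.81 for Trem2 and 1.37 for Spp1 (adjusted p = 0.188 to 0.997), and Trem1 and Chil3 did not pass the filter. Ly6c2 did not pass it within either fraction alone and had an SE of 8.52, so nothing is read from its value. Trem2 and Spp1 did not pass it within ME. At IM24h none of 9 was called, against 0.537% of 17508 genes, which again does not show that the responses were alike. For 3 members the change in RiboTag was over 2-fold lower than in ME at an unadjusted p under 0.05, against 7.22% of genes. Those were Plac8 (log2 difference −2.99 ± 1.02 SE, adjusted p = 0.195), Spp1 (−2.83 ± 1.13, adjusted p = 0.273) and Gpnmb (−2.44 ± 0.99, adjusted p = 0.286). The Spp1 value was −4.88 without ME naive library 1 and −0.73 without RiboTag naive library 1, and without ME IM24h library 4 Plac8 was at −2.33 and Gpnmb at −1.78. DESeq2 called Plac8 (−3.05, adjusted p = 0.0416). Against naive at IM24h, Plac8 was at log2 −2.01 in RiboTag and 1.03 in ME, opposite in direction and called in neither. The other 6 were at −4.90 (Trem1), −2.96 (Trem2), −2.78 (Chil3), −1.13 (Ly6c2), −1.11 (Retnla) and −0.77 (Fcgr1), with adjusted p = 0.416 to 0.954. Chil3 and Ly6c2 did not pass the filter within RiboTag and entered through ME, so nothing is read about RiboTag from their values. The 95% interval of Chil3 ran from −25.0 to 19.4. At IM72h, 4 of 7 members were called with a lower change in RiboTag than in ME, against 21.1% of 16527 genes: Fcgr1 (adjusted p = 0.00922), Retnla (0.00482), Trem1 (0.0240) and Trem2 (0.00950). All 4 were at 0 in every IM72h RiboTag library, where Sox10 was also near 0, so the sizes are not given. Fcgr1, Trem1 and Trem2 did not pass the filter within RiboTag and entered this test through ME, where they are high, so their calls carry the ME rise and nothing is read from them or from the count of 4 about RiboTag. The Trem1 call was lost without ME naive library 1 (adjusted p = 0.0667), 2 (0.0640) or 3 (0.0533) and without RiboTag naive library 1 (1.0). The other 3 tested were Gpnmb at −3.08 (adjusted p = 0.107), Spp1 at −2.47 (0.490) and Plac8 at −1.58 (0.667), while Ly6c2 and Chil3 did not pass the filter. Without RiboTag IM72h library 3, Plac8 (adjusted p = 0.000315) and Spp1 (0.0458) were called as well, and without library 4 Gpnmb was (0.0412). Spp1 did not pass the filter within RiboTag at IM72h either and entered through ME, where it is high. Nothing is read about RiboTag from its value or its call. At IM3h, Retnla was at log2 −3.92 ± 0.98 (adjusted p = 0.0571) and was called with DESeq2 (−4.08, adjusted p = 0.000770) and without RiboTag IM3h library 1 (−4.99, adjusted p = 0.0233) or 4 (0.0291).

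Genes of the same pathways were listed beside the members, and their counts stand beside 19.3, 15.6 and 29.3% of all genes called higher in ME at IM3h, IM24h and IM72h, and 2058 of 15333 genes, 13.4% and 28.3% called lower. Of 19 genes of monocyte recruitment, 11 of 15 tested were higher and 1 lower at IM3h, 15 of 18 higher at IM24h, and 17 of 18 higher and 1 lower at IM72h, with medians of 1.93, 2.79 and 2.17 on the log2 scale. Ccl2, the ligand that draws CCR2-positive monocytes, was 166-fold higher at IM3h, 187-fold at IM24h and 30.5-fold at IM72h, and Ccr2 had means of 10.5, 16.5, 136 and 77.1 CPM from naive to IM72h. At IM3h, when Ccl2 was already high, the libraries of Spp1 and Gpnmb overlapped naive. From IM24h to IM72h, 9 of 18 genes of this list fell and 2 rose, beside 19.9 and 18.6% of all genes, with Ccl2 lowest (log2 −2.61 ± 0.37 SE) and Csf1r, the receptor for the macrophage growth factor, highest (1.09).

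Of 15 genes of the interleukin-4 and interleukin-13 response, 5 of 9 tested were higher and 1 lower at IM3h, 6 of 11 higher and 1 lower at IM24h, and 6 of 11 higher and 2 lower at IM72h (median log2 0.46, 1.48 and 1.82). Ccl17, a chemokine for T cells, held 1 count in naive and was called higher at all 3 times (adjusted p = 0.000268, 0.00204 and 0.000205), whereas Il4ra, the receptor chain, was at log2 −1.05 at IM24h and −0.60 at IM72h. Clec10a, a lectin of alternatively activated macrophages, was 6.74-fold higher at IM24h and 26.6-fold at IM72h, when Chil3 had fallen and Retnla stayed below naive. Of 17 genes of lipid-laden repair macrophages, 6 of 14 were higher at IM3h, 10 of 16 higher and 2 lower at IM24h, and 11 of 17 higher and 5 lower at IM72h (median log2 0.17, 1.04 and 0.77). Hmox1, which degrades haem, was 46.8-fold higher at IM3h, and the elastase Mmp12 was 68.8-fold higher at IM24h and 59.9-fold at IM72h, while Fabp4, also an adipocyte gene, was at log2 −1.74 and −2.31. Of 9 genes around the TREM receptors, 1 of 5 was higher at IM3h, 4 of 7 at IM24h and 7 of 8 at IM72h (median log2 0.49, 1.93 and 2.67), and the IM3h count is near the share of all genes. Apoe, a TREM2 ligand, was 7.33-fold higher at IM72h than at IM24h (log2 2.87 ± 0.26, adjusted p = 3.44e-05).

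Of markers of resident muscularis macrophages, 0 of 11 were higher and 3 lower at IM3h, 5 of 12 higher at IM24h, and 8 of 11 higher and 1 lower at IM72h (median log2 −0.23, 0.61 and 1.76). Cx3cr1 was at means of 21.2, 4.77, 26 and 72.5 CPM, and Folr2 at log2 −2.58, −1.58 and −1.39. Of neutrophil markers 5 of 7, 8 of 9 and 7 of 8 were higher, and of 5 leukocyte markers 2, 5 and 5. At IM72h, 3 of 4 dendritic cell markers and 4 of 5 T cell markers tested were higher as well. Of the 2 eosinophil and mast cell markers tested, Siglecf, at 0 in naive, was called higher and Kit lower (log2 −0.99). The summed level of that list was 74.0 to 84.0 CPM in naive and 37.2 to 47.2 CPM at IM72h. Of 6 smooth muscle genes, 1, 5 and 3 were lower at the 3 times, and their summed level was 22033 to 23616 CPM in naive, 16623 to 19784 at IM3h, 3152 to 10758 at IM24h and 12318 to 20444 at IM72h. Of 6 mesothelial genes, 5, 1 and 4 were lower, with sums of 136 to 169 CPM in naive and 15.8 to 64.0 at IM3h. The 1 of 6 smooth muscle genes at IM3h and 1 of 6 mesothelial genes at IM24h are near the share of all genes. The part of these shifts in the members' values was not tested. Of 5 fibroblast genes, 4 were lower at IM3h, 1 higher and 1 lower at IM24h, and 3 higher at IM72h. The paralog of Ly6c2 on endothelium, Ly6c1, was called in no ME comparison (log2 0.34, −0.19 and 0.33 against naive), while Ly6a was 2.16-fold, 2.69-fold and 3.50-fold higher. In RiboTag, 4 of 15 genes of monocyte recruitment were higher at IM3h, 1 of 13 at IM24h and 1 of 11 at IM72h, beside 1422 of 16053, 56 of 15304 and 142 of 13572 genes called higher, and no neutrophil or leukocyte marker was called.

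**Figure D5:**
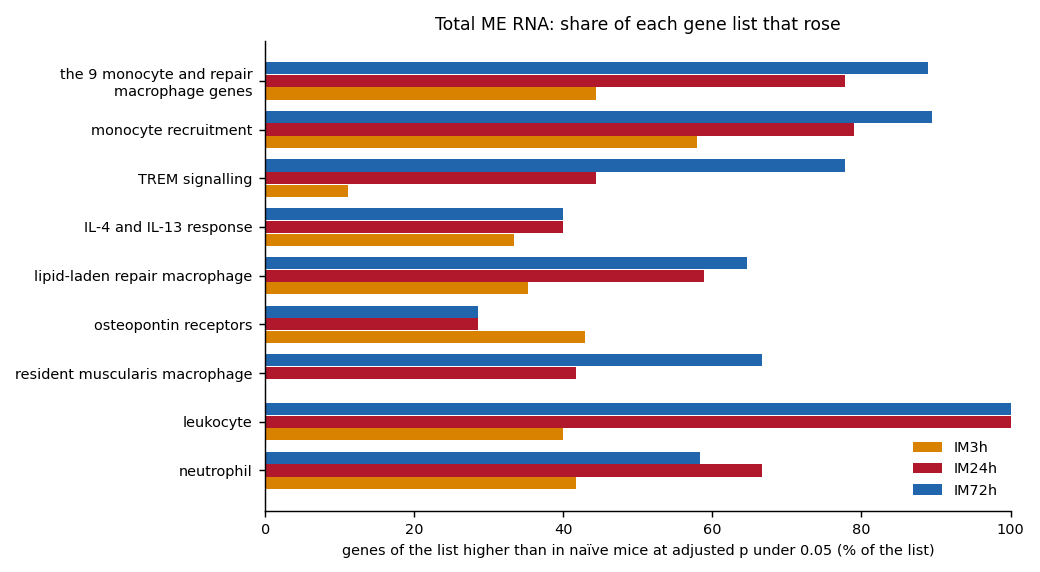
Share of each gene list (bars, percent of all genes on the list) called higher than naive at an adjusted p under 0.05 in ME at IM3h, IM24h and IM72h. Of the 9 genes described here, 4, 7 and 8 were higher.

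The genes whose ME profile over 14 libraries was most like the mean profile of the members were Chrdl2 (Pearson r = 0.981), Ctsb (0.973), Napsa (0.968), Fxyd5 (0.962) and Tagln2 (0.961). The single gene most like each member was March1 for Ly6c2 (0.930), Acot12 for Plac8 (0.917), C3ar1 for Fcgr1 (0.946), S100a9 for Trem1 (0.982), Ctsk for Trem2 (0.978), Vim for Chil3 (0.973), Syp for Retnla (0.937), Gm8995 for Spp1 (0.971) and Csf2ra for Gpnmb (0.935). With Spearman's rho, 1 of the 5 genes nearest the mean profile was again among the nearest 5, and with the IM24h and IM72h libraries alone 0 of 5 were.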

How the data were processed

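Libraries were made with the QuantSeq 3′ kit, which reads transcript ends, and sequenced as single-end 50 bp reads. The authors aligned reads with STAR to mm10 in Partek Flow and deposited estimated counts, not scaled, per gene for ME and per transcript for RiboTag. Deposited tables list only features with at least 10 counts in total. RiboTag transcripts were summed to genes by symbol and the 3 tables joined, with unlisted transcripts taken as 0. The labels name 4 naive RiboTag samples and the tables hold 3, identical in every table. The group of a row was taken from the table's own group entry, since row names matched no sample.

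Counts were rounded and tested with edgeR 4.0.16 (R 4.3.3, limma 3.58.1; TMM, filterByExpr, quasi-likelihood, two-sided) on the libraries of the groups compared, with Benjamini-Hochberg adjustment over all genes tested. SE is the log2 fold change divided by the square root of F. Ratios against 1 count have exact counting intervals, and all intervals on counts and floors of 3 counts cover counting error only. Genes under the filter were compared by exact permutation of CPM. Alternatives were DESeq2 1.42.0, other scalings, no filter, all groups in 1 fit, tables without AY036118 and leaving out each library. The ME fits without AY036118 were chosen after seeing the data. Scripts were tested on simulated data. At the spread of RiboTag at IM24h and IM72h, and of the difference between fractions at IM24h, planted changes were not recovered, so the absence of a call there shows little. At the spread of RiboTag at IM3h, 33.5% were recovered, so the absence of a call is weak there too. The simulation did not match the data of RiboTag at IM72h, where 142 genes were called higher and 2049 lower.

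The 9 genes and all lists were chosen with earlier results of these data known. All 9 genes are named in every comparison, and 1 further gene of the same list is not reported here. Of other lists, counts and the genes with the largest or smallest change are named, with family members of the 9 and defining markers. Ccr2 and Cx3cr1 were added after their values were seen.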

Additional observations from a re-analysis of the deposited data

Results flagged for a closer look

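Within groups of 4 libraries, 8 of 38 sets of levels had 1 library far from the others by Dixon's test at the 95% level, which chance gives in about 1 of 20. In 4 of the 8 (Ly6c2, Trem2, Chil3 and Retnla in RiboTag) the other 3 libraries were at 0, which fixes the result of the test, so that rate does not apply to them. In ME at IM72h, Trem1 was at 1.62 CPM in library 4, and Retnla at 5.43 CPM in library 3. In RiboTag at IM3h, Ly6c2 was at 1.04 CPM in library 2 and at 0 in the others. In RiboTag at IM24h, library 1 was apart with Trem2 at 8.52 CPM and Chil3 at 1.63 CPM, and library 4 with Retnla at 1.33 CPM. In RiboTag at IM72h, library 3 was apart with Plac8 at 57.3 CPM and Spp1 at 22.9 CPM.

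The edgeR interaction test of ME against RiboTag at IM72h passed the threshold for Retnla (adjusted p = 0.00482), Fcgr1 (0.00922), Trem1 (0.0240) and Trem2 (0.00950). All 4 rest on RiboTag IM72h groups at 0. Fcgr1, Trem1 and Trem2 passed the filter on low counts only through ME, where they are high, so their values carry the ME rise and nothing is read from them about RiboTag.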

How the results depend on the processing

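Each comparison was repeated under other tools, scalings and filters and with each library left out, and the number of called members was compared. Of single-gene results in ME against naive, 77 of 90 kept direction and call at IM3h, 128 of 144 at IM24h and all 141 at IM72h. At IM3h, 7 lost the call, 3 gained it and 3 turned. Without 1 library, the number called ranged in ME from 3 to 5 at IM3h, 5 to 8 at IM24h, 8 to 9 at IM72h and 3 to 7 between IM24h and IM72h. In RiboTag it ranged from 0 to 1 at IM3h, was 0 at IM24h, ranged from 1 to 2 at IM72h, and was 0 between IM24h and IM72h. For the difference between fractions it ranged from 0 to 1 at IM3h, was 0 at IM24h, and ranged from 3 to 6 at IM72h. With DESeq2, 1 member was called in RiboTag at IM3h, 1 at IM24h and 0 at IM72h, while the difference between fractions had 1 each at IM3h and IM24h. RiboTag at IM72h also had 0 called with no filter, with all groups in 1 fit and without AY036118. At an unadjusted p under 0.05 with over 2-fold change, RiboTag had 1 each at IM3h and IM24h, and the difference between fractions 2 at IM3h and 3 at IM24h. The 2 at IM3h were Plac8 and Retnla, both lower, against 913 of 17617 genes lower there. With no scaling, 7 were called in the difference at IM72h, beside 92 of 16527 genes called higher and 8828 called lower. With scaling by Actb, Hsp90ab1 and Rplp1, 5 were called in ME at IM24h, beside 756 of 16328 genes called higher and 1861 called lower. For these counts the cause was not tested.

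Scaling moved the median log2 change of all genes: in ME it was 0.00, 0.02 and 0.02 with TMM at the 3 times, −0.26, 0.66 and 0.62 with the library total, and −0.41, −0.35 and −0.58 with Actb, Hsp90ab1 and Rplp1. In RiboTag it was −0.04, −0.11 and −0.40 with TMM and −0.24, −0.96 and −2.13 with the library total. In ME at IM24h the genes called higher and lower were 2553 and 2187 with TMM, 6281 and 720 with the library total, and 756 and 1861 with the 3 reference genes. Directions that turned were those of uncalled genes. In RiboTag at IM3h, Fcgr1 went to −0.022 with the library total, and with the 3 reference genes Fcgr1 was at −0.13 and Gpnmb at −0.074. In RiboTag at IM72h, Gpnmb went to −1.57, −1.10 and −0.84, and Plac8 to −2.41, −1.87 and −0.83, with no scaling, the library total and the reference genes. Between IM24h and IM72h, Ly6c2 in ME went to 0.071 with no scaling, and Gpnmb in RiboTag to −0.58 with no scaling and −0.13 with the library total. In the difference between fractions at IM3h, Ly6c2 went to 0.14 with no scaling.

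Leaving out 1 library turned some directions. In ME, Gpnmb at IM3h ranged from −0.55 to 0.23, and Ly6c2 between IM24h and IM72h from −0.58 to 0.074. In RiboTag at IM3h, Trem2 ranged from −1.24 to 1.33, Fcgr1 from −0.64 to 1.13 and Gpnmb from −0.13 to 0.44. At IM24h, Trem2 ranged from −1.07 to 1.49 and Gpnmb from −0.50 to 0.083, and at IM72h Plac8 from −5.79 to 1.12. In the difference between fractions at IM3h, Gpnmb ranged from −0.0034 to 0.77, Spp1 from −0.65 to 3.49 and Ly6c2 from −1.08 to 1.71. At IM24h, Fcgr1 ranged from −2.07 to 0.16 and Trem1 from −6.74 to 0.85.

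No paired analysis was possible because the rows of the tables carry no replicate numbers of the labels. At RiboTag depth, 0 counts in all 4 IM72h libraries allow a level of up to 0.424 CPM.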
